A study of Homo sapiens with 9 samples.

Results

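The oncofetal genes of liver cancer are genes of the fetal liver and of other embryonic tissues whose expression in the liver mostly falls after birth and that are transcribed again in hepatocellular carcinoma (HCC). A list of 10 such genes was followed, drawn up by gene name with earlier results of these data known: AFP, GPC3, DLK1, H19, IGF2, IGF2BP1, IGF2BP2, IGF2BP3, LIN28B and HMGA2, of 60642 gene names in all. They were measured by RNA-seq in 9 libraries of SNU-398, an HCC cell line that the study classes as mesenchymal-like. SNU-398 cells with a wild-type genotype label served as the vector control (3 libraries), and the other two groups stably overexpressed EMX1-FL (3 libraries) or EMX1-X1 (3 libraries). EMX1 is a homeobox transcription factor. EMX1-FL is its full-length form and EMX1-X1 is an alternative splice form that ends in another terminal exon. Constructs were introduced by lentivirus, and cells of all groups, controls included, went through puromycin selection, so that each group is a selected population of 1 cell line. The labels number the libraries of a group and do not say whether they came from separate cultures, so p-values measure the spread between these libraries, which may be technical.

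The members belong to separate parts of one fetal programme. AFP, GPC3 and DLK1 are proteins of the blood plasma or the cell surface. H19 and IGF2 are neighbouring imprinted genes on chromosome 11, a long noncoding RNA and a growth factor. The 3 IGF2BP proteins bind and stabilise mRNAs, LIN28B blocks the maturation of the microRNA let-7, and HMGA2 is a chromatin protein of proliferating embryonic cells. Transcripts of HMGA2, LIN28B and the IGF2BP genes are textbook targets of let-7, so a fall in let-7 and the expression of these genes are held to go together in development and in cancer.

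Total counts were between 21562703 and 25197970 read pairs per library. Overexpression was checked on EMX1 itself, in CPM (counts per 1000000 counted read pairs). Its level was 10.7 ± 1.90 (SD, n = 3) in the vector control, 177 ± 64.3 in EMX1-FL and 242 ± 84.6 in EMX1-X1. The count is by gene name and does not separate the isoforms. EMX1-FL against EMX1-X1 gave a log2 fold change of -0.45 ± 0.30 (SE), and these groups overlapped. Which isoform a library overexpressed was therefore taken from the labels and not checked. The libraries also fell into 2 sets along the first principal component, which held 39.6% of the variance and did not follow the groups. Cluster A held vector control 1 and 2, EMX1-FL 2 and 3 and EMX1-X1 1, and cluster B held vector control 3, EMX1-FL 1 and EMX1-X1 2 and 3. Among the overexpressing libraries EMX1 was also higher in cluster B (251 to 294 CPM) than in cluster A (135 to 145 CPM). The liver label was checked on hepatocyte markers, of which 10 of 12 stayed under 1 TPM (transcripts per 1000000) in every library, and 3 of 12 were at 0 in all. Their summed level was 0.820 to 1.32 TPM in the vector control, 2.16 to 3.50 TPM in EMX1-FL and 1.34 to 3.15 TPM in EMX1-X1, led by ALB (at most 2.77 TPM). The 4 mesenchymal markers, led by VIM, summed to 749 to 1006 TPM in the vector control, 921 to 1191 TPM in EMX1-FL and 811 to 893 TPM in EMX1-X1. The 5 epithelial markers summed to 4.52 to 7.44, 6.57 to 9.85 and 6.40 to 9.97 TPM in the same order, and the leukocyte and endothelial markers each summed to at most 0.30 TPM.

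The 10 members split into 6 that were well expressed and 4 that were silent or close to it, in each of the 3 groups. Per length, as TPM in the vector control, the order was IGF2BP2 with 106 ± 14.3 (SD, n = 3), IGF2BP1 with 93.3 ± 1.02, HMGA2 with 50.5 ± 8.02, LIN28B with 40.6 ± 10.4, GPC3 with 17.9 ± 3.55 and IGF2BP3 with 17.8 ± 4.12. H19 followed with 0.114 ± 0.116, IGF2 with 0.00829 ± 0.0144, and AFP and DLK1 were at 0. The libraries of IGF2BP2 overlapped those of IGF2BP1, those of HMGA2 overlapped LIN28B, and those of GPC3 overlapped IGF2BP3, so these neighbours in the order did not differ beyond their spread. The steps from IGF2BP1 to HMGA2, from LIN28B to GPC3 and from IGF2BP3 to H19 were free of overlap across all 9 libraries. Of the genes tested, 7.42% stood above IGF2BP2 in the vector control, 23.4% above LIN28B and 42.3% above GPC3.

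**Figure D1:**
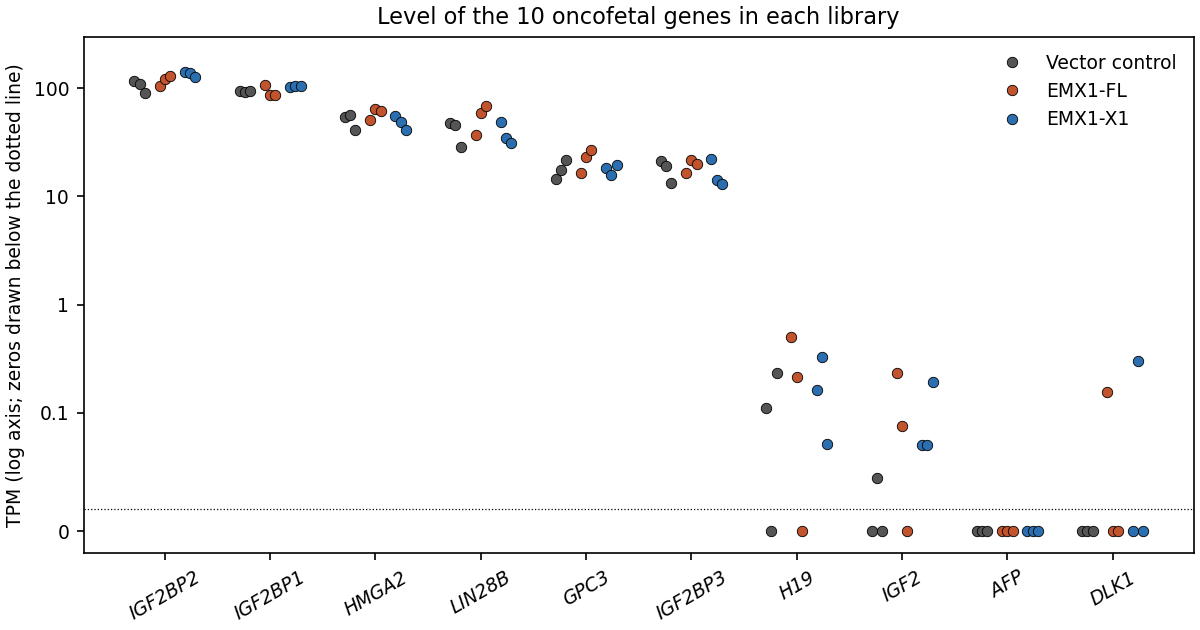
TPM (vertical log axis, zeros drawn below the dotted line) of the 10 oncofetal genes, with 1 point per library and a colour per group (vector control, EMX1-FL, EMX1-X1; 3 libraries each). In the plot 6 genes lie between 13.2 and 141 TPM in every library, while H19, IGF2 and DLK1 stay at or under 0.505 TPM and AFP is at 0 throughout.

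The order of levels depended on the length used. The authors divided by all exon bases of a gene, which for HMGA2 are 15403 bases against 4473 bases of its principal transcript. The TPM of each member were also rescaled to the length of its principal transcript, a choice added after seeing the data. The lengths of all other genes were left unchanged, so the rescaled values are not TPM and serve only to order the members. In the vector control HMGA2 then had the highest mean of the members at 174 ± 27.6, above IGF2BP2 at 136 ± 18.3 and IGF2BP1 at 109 ± 1.19. The vector control libraries of HMGA2 and IGF2BP2 overlapped on this scale, and in EMX1-X1 the mean of IGF2BP2 was the higher. HMGA2 and IGF2BP2 thus did not differ beyond their spread. On the same scale IGF2BP3 stood at 35.8 ± 8.28 and passed GPC3 at 19.98 ± 3.96.

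In no comparison between groups did a member pass the study's threshold, an unadjusted p under 0.05 together with a fold change of 2 or more in either direction. Counts were compared with edgeR's quasi-likelihood test over 18574 genes that passed its filter on low counts, and 6 of the 10 members passed that filter (GPC3, IGF2BP1, IGF2BP2, IGF2BP3, LIN28B and HMGA2). For EMX1-FL against vector control 2.42% of the genes tested were called, and 0 of the 6 members. For EMX1-X1 against vector control the figures were 2.50% of genes and 0 of 6, and for EMX1-FL against EMX1-X1 they were 1.42% and 0 of 6. At an unadjusted p under 0.05 alone the count of members was also 0 in each comparison. DESeq2 gave 0 at this p as well. Over all 20 alternative fits 14 of 360 values of these members reached it (6 of LIN28B, 5 of IGF2BP2, 2 of IGF2BP3 and 1 of HMGA2), none with a 2-fold change. The smallest adjusted p among them was 0.0543 (edgeR, LIN28B between the isoforms, without EMX1-FL 1). The median log2 fold change of the 6 members was 0.10 for EMX1-FL against vector control, -0.13 for EMX1-X1 against vector control and 0.25 for EMX1-FL against EMX1-X1, beside medians over all genes of 0.04, 0.01 and 0.02. The comparisons share libraries, so these medians are not independent of one another.

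The 95% confidence intervals say how large a change these libraries could have missed. In 17 of the 18 tests of a member the interval lay inside a 2-fold change in either direction, and LIN28B in EMX1-FL against EMX1-X1 reached a 2.11-fold difference. The intervals against the vector control ran from 0.721-fold to 1.87-fold for EMX1-FL and from 0.602-fold to 1.5-fold for EMX1-X1. A p that misses the threshold does not show that the groups were equal, and the intervals bound only the RNA level. In bulk RNA, fewer cells with a transcript and less of it per cell cannot be told apart.

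**Figure D2:**
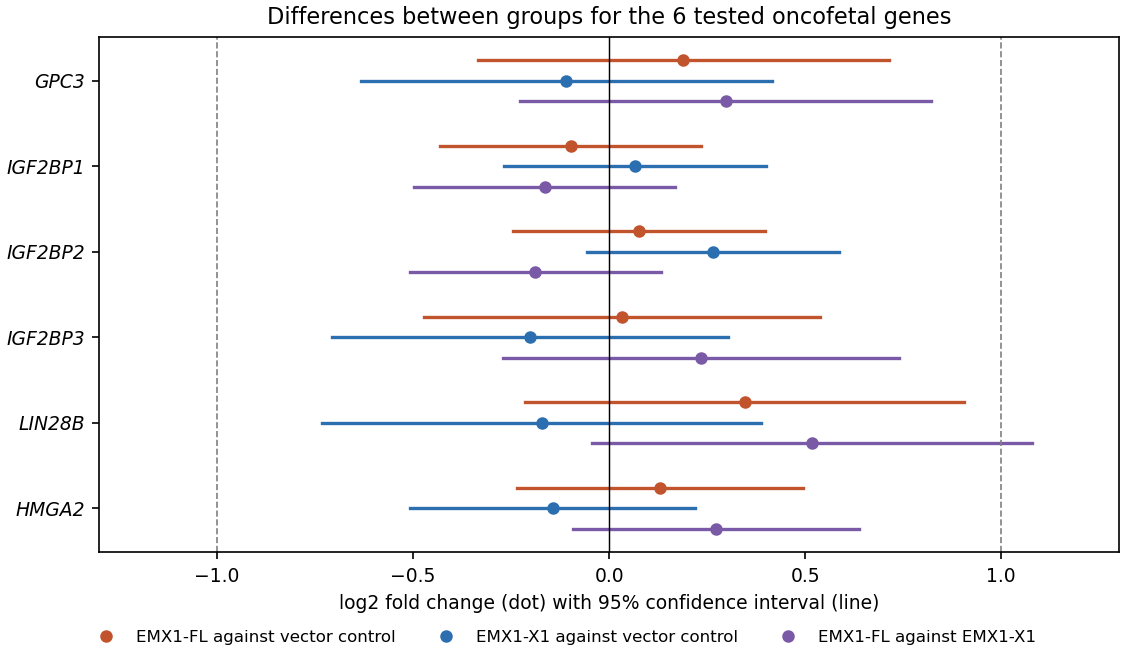
Log2 fold change (dot) and 95% confidence interval (line, edgeR, 9 libraries) of the 6 tested oncofetal genes in the 3 comparisons, with dashed lines at a 2-fold change. Every interval includes 0, and only that of LIN28B in EMX1-FL against EMX1-X1 crosses a dashed line.

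Among the secreted and surface proteins, only GPC3 was expressed. GPC3 is a glypican, a heparan sulfate proteoglycan anchored to the membrane, and a diagnostic antigen of HCC (chromosome X, 133535745 to 133985594, minus strand, GRCh38). Its level was 11.2, 14.2 and 19 CPM in the vector control, 12.8, 18.0 and 19.8 CPM in EMX1-FL and 14, 11.9 and 15.2 CPM in EMX1-X1. The 3 groups overlapped, and the spread inside the vector control alone covered most of the values of the other two. The log2 fold change was 0.19 ± 0.24 (SE) for EMX1-FL and -0.11 ± 0.24 for EMX1-X1 against the vector control, with adjusted p = 0.997 and 0.898 by edgeR. Inside cluster A EMX1-FL stood 0.58 above the vector control on the log2 scale. Inside cluster B, where only EMX1-FL 1 and vector control 3 could be compared, it stood 0.57 below (log2 difference -0.57). The sign thus turned between the sets of libraries, which rests in cluster B on that pair alone.

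AFP, the fetal albumin and the serum marker of HCC (chromosome 4, 73431138 to 73456174, plus strand, GRCh38), had 0 counts in all 9 libraries. A count of 0 allows up to 3 counts, or 0.119 to 0.139 CPM in these libraries. AFM and GC, also of the albumin family, were also at 0 in all libraries. ALB, the adult member of the family and the gene next to AFP, was low but countable, with 15, 10 and 18 counts in the vector control libraries, 22, 39 and 53 in those of EMX1-FL and 20, 38 and 38 in those of EMX1-X1. Every overexpression library was above every vector control library. ALB was called for EMX1-FL (log2 fold change 1.46 ± 0.45, adjusted p = 0.467, edgeR) and for EMX1-X1 (1.11 ± 0.45, adjusted p = 0.576, edgeR), and neither passed the adjusted threshold. For EMX1-X1 the call was lost without vector control 1 (log2 fold change 1.14) or 2 (0.90) and without EMX1-X1 2 (0.96) or 3 (0.97).

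Of 10 genes listed as regulators of AFP 7 were tested and 0 were called in any comparison. FOXA2, a liver factor of the forkhead family, was at 0 in every library. FOXA1, the most abundant of them, stood at 25.3 ± 1.46 TPM in the vector control, and ZHX2, a repressor of AFP after birth, at 9.90 TPM.

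DLK1, a membrane ligand-like protein of hepatoblasts (chromosome 14, 100725705 to 100738224, plus strand, GRCh38), had 0 counts in 7 of the 9 libraries, 5 counts in EMX1-FL 1 and 10 counts in EMX1-X1 2. Both are cluster B libraries, and no group had counts in more than 1 library. The other gene of this family, DLK2, was expressed, at 137, 113 and 147 counts in the vector control libraries, 122, 75 and 54 in those of EMX1-FL and 108, 202 and 231 in those of EMX1-X1. DLK2 was called lower in EMX1-FL than in EMX1-X1 (log2 fold change -1.0 ± 0.33, adjusted p = 0.611, edgeR), although EMX1-X1 1 lay within the EMX1-FL range. The call was lost with the cluster of libraries as a term (-0.78) and without EMX1-FL 2 (-0.92), EMX1-FL 3 (-0.79), EMX1-X1 2 (-0.91) or EMX1-X1 3 (-0.81). In all it was lost in 10 of 20 alternative fits, and the offset for GC content gave the smallest difference (-0.72). The 4 Notch receptors were tested as possible partners and none was called.

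GPC2, another glypican, was the one called member of 8 glypicans and partner genes, of which 6 were tested. Its count was 742, 670 and 816 in the vector control libraries, 1389, 839 and 936 in those of EMX1-FL and 950, 1841 and 1822 in those of EMX1-X1, and every overexpression library was above every vector control library. For EMX1-X1 the log2 fold change was 1.0 ± 0.27 (adjusted p = 0.457, edgeR), at the very edge of the threshold, and it was 0.75 with the cluster as a term and 0.61 with an offset for GC content. Leaving out vector control 1 or 2, EMX1-FL 1 or 2, or EMX1-X1 2 or 3 also took it under the threshold, at 0.84 to 0.996, and in all the call was lost in 12 of 20 alternative fits. The median log2 fold change of the 6 tested genes of this list was 0.41 under EMX1-FL and 0.60 under EMX1-X1 (GPC3 is not among them). Over all genes the medians were 0.04 and 0.01. The part of the clusters in these medians was not tested.

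The imprinted pair on chromosome 11 was near silent. H19 (1995176 to 2001470, minus strand, GRCh38) had 2, 0 and 5 counts in the vector control libraries, 9, 4 and 0 in those of EMX1-FL and 3, 6 and 1 in those of EMX1-X1. The groups overlapped from 0 or 1 count upward, and no fold is given at this depth. IGF2 (2129112 to 2141238, minus strand, GRCh38) had 0, 1 and 0 counts in the vector control libraries, 9, 3 and 0 in those of EMX1-FL and 2, 2 and 8 in those of EMX1-X1. All 3 EMX1-X1 libraries were above all 3 vector control libraries, by 1 count at the nearest pair. Separation of these groups, in either direction, was seen in 14.7% of all genes tested, of which IGF2 was not one. Neither gene passed the filter. Without a filter the study's threshold would call IGF2 for EMX1-FL (adjusted p = 0.888, edgeR) but not for EMX1-X1 (adjusted p = 0.702), and DLK1 for EMX1-X1 (adjusted p = 0.568). These values rest on sums of 1 to 12 counts for IGF2 and 0 to 10 for DLK1 in a group.

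The level of IGF2 is also limited by how reads were counted. By default the program the authors used leaves uncounted those read pairs that lie on exons of several genes, and 72.1% of the exon bases of IGF2 are shared with other gene names, 70.7% with AC132217.2 alone and 15.9% with INS-IGF2. INS-IGF2, AC132217.1 and AC132217.2 had 0 counts in all libraries, so reads from the shared bases do not appear under those names. The remaining bases of IGF2 yielded between 0 and 9 counts a library. For H19 the shared part was 7.35%, for IGF2BP3 17.8% (with MALSU1) and for LIN28B 3.05%, and GPC3, IGF2BP2, AFP and DLK1 shared no exon base.

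Other imprinted genes were not silent. Of 21 genes listed 16 were tested, led by GNAS at 444 ± 30.9 TPM, and NDN and PEG10 stood at 151 and 141 TPM in the vector control. The one call was MEG3, a noncoding RNA of the DLK1 domain on chromosome 14, with 25, 37 and 19 counts in the vector control libraries, 60, 44 and 42 in those of EMX1-FL and 65, 58 and 56 in those of EMX1-X1. Every overexpression library was above every vector control library. The log2 fold change was 1.09 ± 0.33 for EMX1-X1 (adjusted p = 0.487, edgeR) and 0.90 ± 0.33 for EMX1-FL (adjusted p = 0.698, edgeR), and only the first passed the fold threshold. Without vector control 3 the first was 0.86, and without EMX1-X1 1 it was 0.998, both under the threshold. MEG8 and RTL1 of the same domain had at most 4 counts in a library.

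Of the 3 genes for mRNA-binding IGF2BP proteins, IGF2BP2 and IGF2BP1 led the members by TPM over all exon bases. IGF2BP2 was the only tested member with groups free of overlap. The IGF2BP proteins hold mRNAs such as those of MYC, ACTB and IGF2 in the cytoplasm. IGF2BP2 (chromosome 3, 185643739 to 185825056, minus strand, GRCh38) stood at 150.3, 145 and 131 CPM in the vector control, 136, 156 and 157 CPM in EMX1-FL and 177, 172 and 164 CPM in EMX1-X1. All EMX1-X1 libraries were above all others, whereas EMX1-FL overlapped the vector control. Separation of EMX1-X1 from vector control was seen in 14.7% of all genes tested and in 1 of the 6 members, and separation of EMX1-FL from EMX1-X1 in 8.38% of genes and 1 of 6. For EMX1-FL against vector control it was 10.5% and 0 of 6.

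The difference in IGF2BP2 was small. The log2 fold change for EMX1-X1 against vector control was 0.26 ± 0.15, a 1.2-fold level with a 95% interval from 0.962-fold to 1.5-fold (adjusted p = 0.648, edgeR). An exact permutation test on log2 CPM (two-sided) gave p = 0.1, the smallest that 3 libraries against 3 allow. Inside cluster A the difference was 0.26 on the log2 scale and inside cluster B it was 0.36, with 1 or 2 libraries a side. With the cluster as a term in the fit it was 0.32 (adjusted p = 0.206, edgeR), and limma on log2(TPM + 1) gave 0.36 (adjusted p = 0.510). The clusters were drawn from the same counts, so the first of these p-values may be too small. EMX1-FL against vector control gave 0.08 ± 0.15, and EMX1-FL against EMX1-X1 gave -0.19 ± 0.15 (adjusted p = 0.640, edgeR).

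IGF2BP1 (chromosome 17, 48997385 to 49056145, plus strand, GRCh38) stood at 244, 249 and 276 CPM in the vector control, 279, 225 and 214 CPM in EMX1-FL and 265, 267 and 273 CPM in EMX1-X1. The groups overlapped, and the lowest and the highest library were both EMX1-FL. Relative to the vector control the log2 fold change was -0.10 ± 0.15 (EMX1-FL) and 0.07 ± 0.15 (EMX1-X1).

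IGF2BP3 (chromosome 7, 23310209 to 23470491, minus strand, GRCh38) had the lowest RNA level of the 3 IGF2BP genes in TPM. It stood at 48.5, 45.8 and 34.5 CPM in the vector control, 38.2, 50.1 and 43.5 CPM in EMX1-FL and 50.1, 31.6 and 30.3 CPM in EMX1-X1. The groups overlapped, and the low values were those of cluster B. Relative to the vector control the log2 fold change was 0.03 ± 0.23 (EMX1-FL) and -0.20 ± 0.23 (EMX1-X1). The sign for EMX1-FL turned without vector control 3 (-0.12), without EMX1-FL 2 (-0.10) and with the offset for GC content (-0.08).

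Of 10 mRNAs listed as clients of the IGF2BP proteins 9 were tested, and ACTB, the most abundant, stood at 1975 ± 347 TPM in the vector control. The log2 fold changes under EMX1-FL and EMX1-X1 were -0.29 and 0.00 for MYC, which was not called. The one call was MAPK4 for EMX1-FL (log2 fold change 1.86 ± 0.85, adjusted p = 0.861, edgeR), at 7, 1 and 0 counts in the vector control libraries, 10, 11 and 8 in those of EMX1-FL and 8, 7 and 13 in those of EMX1-X1. That call was kept without vector control 1 (4.01) and lost without any other single library (1.26 to 1.94), and it was lost in 11 of 18 alternative fits in all.

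LIN28B had the widest spread of the 6 tested members, 2.14-fold from its lowest to its highest library. LIN28B binds precursors of let-7 and blocks their maturation (chromosome 6, 104936616 to 105083332, plus strand, GRCh38). It stood at 76.3, 75.8 and 52.3 CPM in the vector control, 59.6, 94.2 and 106 CPM in EMX1-FL and 77.7, 54.1 and 49.5 CPM in EMX1-X1. EMX1-FL 2 and 3 were above every other library, but EMX1-FL 1 was below vector control 1 and 2, and the groups overlapped. The log2 fold change was 0.35 ± 0.26 for EMX1-FL against vector control (adjusted p = 0.997), -0.17 ± 0.26 for EMX1-X1 against vector control and 0.52 ± 0.26 for EMX1-FL against EMX1-X1 (adjusted p = 0.611, edgeR). Without EMX1-FL 1 the last of these was 0.75 (adjusted p = 0.0543, edgeR). EMX1-FL 1 is the only cluster B library of its group, so that fit set cluster A libraries alone against an EMX1-X1 group mostly of cluster B. Far more genes over all were also called between the isoforms in that fit, as given in the last section.

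The spread of LIN28B followed the 2 sets of libraries. It was 75.8 to 106 CPM in the 5 libraries of cluster A and 49.5 to 59.6 CPM in the 4 of cluster B, without overlap. EMX1 itself was higher in the cluster B libraries of both overexpression groups, as given above, and its part in the spread of LIN28B was not tested. Inside cluster A EMX1-FL stood 0.39 above the vector control on the log2 scale, and inside cluster B 0.19 above (EMX1-FL 1 against vector control 3 alone). With the cluster as a term the fit gave 0.33 ± 0.10 for EMX1-FL (adjusted p = 0.148, edgeR), 0.03 ± 0.11 for EMX1-X1 and 0.30 ± 0.11 between the isoforms (adjusted p = 0.278, edgeR). With the offset for GC content the 3 values were 0.18, -0.01 and 0.19. The clusters were drawn from these same counts, so the SE and adjusted p with the cluster as a term may understate the spread. LIN28A, the paralog, had at most 3 counts in a library.

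HMGA2 (chromosome 12, 65824131 to 65966295, plus strand, GRCh38) stood at 224, 242 and 195 CPM in the vector control, 214, 264 and 245 CPM in EMX1-FL and 228, 198 and 172 CPM in EMX1-X1. The groups overlapped, with the lowest library of each in cluster B. Relative to the vector control the log2 fold change was 0.13 ± 0.17 (EMX1-FL) and -0.14 ± 0.17 (EMX1-X1), and between the isoforms 0.27 ± 0.17 (adjusted p = 0.611, edgeR).

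**Figure D3:**
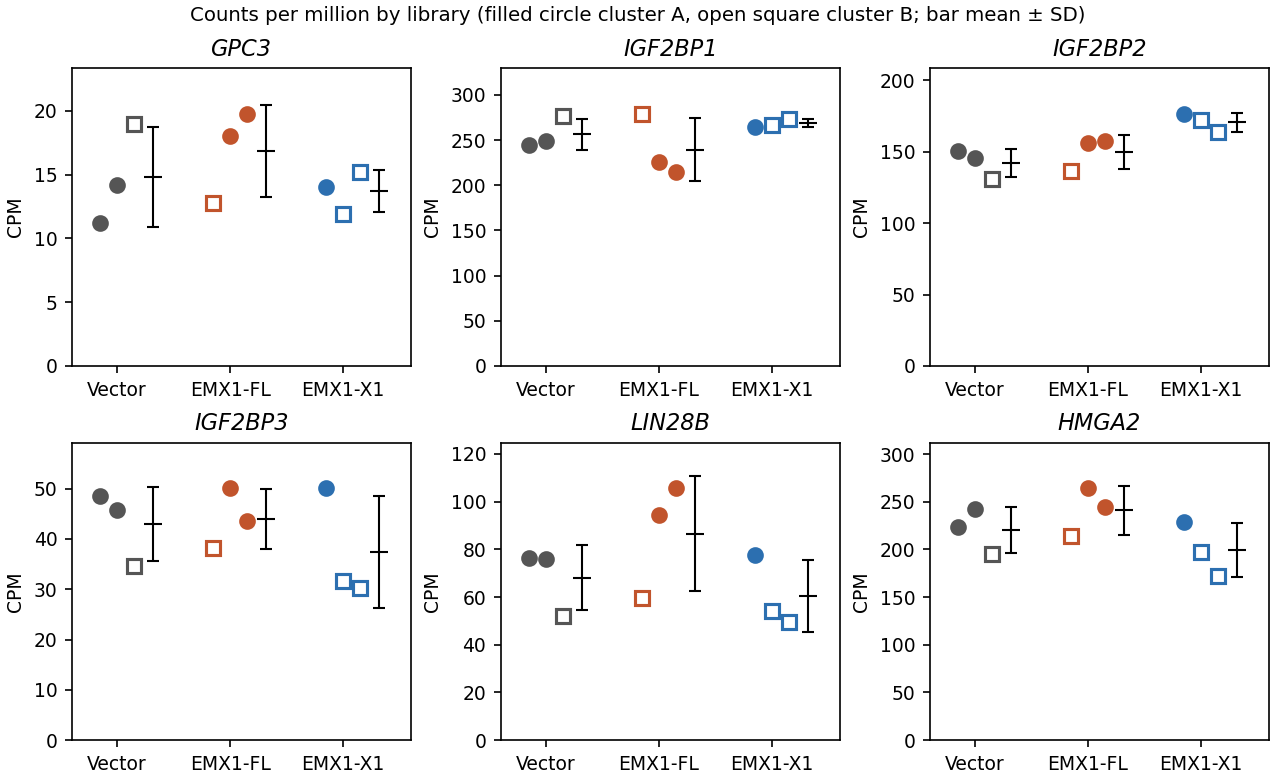
CPM (vertical axis from 0) of the 6 tested oncofetal genes in each library, by group, with filled circles for cluster A, open squares for cluster B and a bar for the mean ± SD of 3 libraries. IGF2BP2 separates EMX1-X1 (164 to 177 CPM) from the other groups, while LIN28B, IGF2BP3 and HMGA2 are lower in every open square than in every filled circle.

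Of the 6 tested members 4 separated the clusters without overlap: LIN28B, IGF2BP3 and HMGA2 were lower in cluster B (log2 differences of -0.66, -0.50 and -0.31), and IGF2BP1 was higher (0.20). GPC3 and IGF2BP2 overlapped, at -0.06 and -0.07. These values are a description, since the clusters were drawn from all genes, and 33.1% of the genes tested separated them in the same way. Between the clusters lay 85.1% of the sum of squares of IGF2BP3, 81.1% of LIN28B, 71.3% of HMGA2 and 59% of IGF2BP1 (log2 CPM over 9 libraries), against 18.5%, 32.5%, 38.9% and 31.1% between the groups. For IGF2BP2 it was the reverse, 5.87% against 67.4%. The medians over all genes tested were 41.0% between the clusters and 26.0% between the groups. Shares between clusters and between groups were computed separately, and the clusters were spread unevenly over the groups. The shares therefore overlap and are not parts of one whole.

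The difference between the clusters moved with base composition over all genes. Genes whose principal transcript held 35 to 40% GC had a median log2 difference of -0.61 (cluster B minus A), those with 45 to 50% had -0.07 and those with 55 to 60% had 0.43. LIN28B, with 38.1% GC, stood at -0.66, and IGF2BP3, with 40.5% GC, at -0.50 beside a median of -0.37 for genes of 40 to 45%. HMGA2 with 45.3% GC and IGF2BP1 with 49.6% fell in the same bin and lay on opposite sides of its median. GPC3, with 51.4% GC, was below its bin's median of 0.20. The part of GC content in these differences was not tested.

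Among the members 5 carry matches to the let-7 seed, and the sequences are given because this microRNA family links LIN28B to the other members. The 12 let-7 and miR-98 loci in RefSeq (GRCh38.p14) share 1 seed, bases 2 to 8, shown in capitals in the first 4 lines. In the target windows, from GENCODE transcripts on GRCh38, capitals mark the 7 bases that pair with the seed.
let-7a: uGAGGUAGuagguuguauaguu
let-7d: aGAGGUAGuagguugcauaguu
let-7i: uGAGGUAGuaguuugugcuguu
miR-98: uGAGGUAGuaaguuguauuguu
LIN28B, 3′UTR, chr6:105081421-105081450: gtttacagcaaaaggCTACCTCatagttga
HMGA2, 3′UTR, chr12:65963298-65963327: gccaacgttcgatttCTACCTCagcagcag
IGF2BP1, 3′UTR, chr17:49053698-49053727: cagcagtgctagtaaCTACCTCacagagcc
IGF2BP2, 3′UTR, chr3:185644213-185644242: aacacacagaagaagCTACCTCaggtgttt
IGF2BP3, 3′UTR, chr7:23311788-23311817: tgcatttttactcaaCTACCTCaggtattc
The windows on chromosomes 3 and 7 are on the minus strand and the others on the plus strand. One window is shown for each gene, chosen for an A after the match, which often flanks microRNA target sites.

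The principal transcripts of HMGA2 and LIN28B held 5 matches each, 4 of them in the 3′UTR. IGF2BP1 held 4, IGF2BP2 and IGF2BP3 1 each, all in the 3′UTR, and AFP, GPC3, DLK1, H19 and IGF2 held none. The sense strand of the transcript was searched for CTACCTC. Of 13220 coding genes tested with a transcript 23.7% held at least 1 match and 0.219% (29 genes) held 4 or more, a group that includes HMGA2, LIN28B and IGF2BP1. Per 1000 bases the number was 1.12 for HMGA2 and 0.908 for LIN28B against 0.0746 over all of these genes. A match is a description of the sequence and was not shown to be a site in use, and mature microRNAs were not measured in these libraries.

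The genes around let-7 did not move past the threshold. Of 9 factors of let-7 processing, which include DROSHA, DICER1 and the uridylating enzymes TUT4 and TUT7, 8 were tested and 0 called in each comparison, with medians of -0.06 for EMX1-FL and -0.21 for EMX1-X1. XPO5, which exports precursors from the nucleus, was the most abundant at 147 ± 4.30 TPM. Of 14 let-7 target genes outside the member list 13 were tested and 0 were called, with a median of 0.04 under EMX1-FL and 0.00 under EMX1-X1. The 4 host transcripts of let-7 loci were tested and 0 were called. HUWE1, a host of 2 family members on chromosome X, gave -0.32 ± 0.13 on the log2 scale under EMX1-FL (adjusted p = 0.807, edgeR) and 0.00 ± 0.13 under EMX1-X1. MIR99AHG, the host of let-7c, had 1139, 1207 and 891 counts in the vector control libraries, 676, 878 and 735 in those of EMX1-FL and 915, 571 and 618 in those of EMX1-X1. Its log2 fold change was -0.45 ± 0.22 under EMX1-FL (adjusted p = 0.911, edgeR) and -0.67 ± 0.22 under EMX1-X1 (adjusted p = 0.536, edgeR), and the groups overlapped in CPM.

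The lists of IGF signalling and of further oncofetal antigens gave no call. Of 6 IGF receptors and signalling genes 5 were tested, led by IGF2R, the receptor that clears IGF2, at 109 ± 5.51 TPM. Of 10 further oncofetal antigens 6 were tested, led by the growth factor MDK at 306 ± 50.2 TPM, and SALL4, a transcription factor of fetal hepatoblasts, stood at 35.0 TPM. Over all context lists together 76 of 96 genes were tested, and 2 were called against the vector control under EMX1-FL, 3 under EMX1-X1 and 1 between the isoforms, which is 2.63%, 3.95% and 1.32% of those tested beside 2.42%, 2.50% and 1.42% of all genes.

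Among the marker lists, ALB aside, the one call was ZEB1, a transcription factor of the mesenchymal state, for EMX1-FL (log2 fold change 1.22 ± 0.53, adjusted p = 0.837, edgeR). It had 34, 18 and 13 counts in the vector control libraries, 15, 70 and 62 in those of EMX1-FL and 29, 33 and 34 in those of EMX1-X1. The groups overlapped, the 2 high libraries were those of cluster A, and the call was lost in 11 of 20 alternative fits, with values from 0.45 to 1.70. FN1, the matrix protein fibronectin, was higher in every overexpression library than in every vector control library, with log2 fold changes of 0.60 ± 0.14 for EMX1-FL (adjusted p = 0.216, edgeR) and 0.55 ± 0.14 for EMX1-X1 (adjusted p = 0.433, edgeR), under the fold threshold. CDH2, the mesenchymal cadherin, gave 0.58 ± 0.22 (adjusted p = 0.700, edgeR) and 0.48 ± 0.22 (adjusted p = 0.609, edgeR), and its EMX1-FL libraries overlapped the vector control. VIM gave 0.08 ± 0.18 and -0.23 ± 0.18. The 4 mesenchymal markers had median log2 fold changes of 0.59 under EMX1-FL and 0.49 under EMX1-X1. For the 2 tested epithelial markers the medians were 0.43 and 0.57, so both lists were higher. The part of these markers in the levels of the oncofetal genes was not tested.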

How the data were processed

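The 9 RNA-seq libraries were assigned to groups by their labels, 3 per group. A table of raw counts (read pairs by gene name) and one of log2(TPM + 1) values were deposited by the authors. Per the file headers the counts came from featureCounts 2.0.1 on STAR alignments with Ensembl release 99 of GRCh38, counted without regard to strand, whereas the submitters' processing notes name featureCounts 2.0.6 and the paper's methods RSEM. TPM were recomputed from the counts and the listed exon lengths, in bases, that the authors deposited, and agreed within rounding.

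The 10 members and all gene lists were chosen with earlier results of these data known. Named genes are all members, the called genes of each list and the most abundant gene of each list, except 1 list, whose most abundant gene is not reported here. ZHX2, SALL4, NDN, PEG10, LIN28A, FOXA2, MYC, HUWE1, MIR99AHG, FN1, CDH2 and others beyond that rule were named after their values were seen.

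Counts were tested with edgeR 4.0.16 in R 4.3.3 (filterByExpr, TMM factors, quasi-likelihood F test, Benjamini-Hochberg adjustment in each comparison), with only the group in the model of all 9 libraries. CPM use TMM-scaled totals, and the 95% intervals come from the fit. Fold changes are log2 values, and intervals and floors cover counting error and the spread of these libraries only. Total counts, 21562703 to 25197970 per library, set the precision for low genes. Single genes were also compared with a two-sided exact permutation test. Clusters are the 2 sides of the first principal component of log2 CPM. They come from the same counts, so fits with the cluster as a term may understate the spread. GC content was known for 95.6% of genes tested. Alternatives were RLE and upper-quartile factors, DESeq2 1.42.0, no filter beyond 1 count, limma 3.58.1 with pseudocounts of 1 and 0.1 TPM, at least 10 counts in every library, the 6 libraries compared only, the replicate block, the cluster as a term and each library left out. An offset for GC content and the length of the principal transcript were added after seeing the data. The tests were run on simulated counts, drawn independently for each library and without the 2 clusters. That check does not cover structure shared between libraries, and its outcome is not reported here. Transcripts came from GENCODE release 29, microRNAs from RefSeq GRCh38.p14. Python 3.11.15 and matplotlib 3.10.9 drew the plots.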

Additional observations from a re-analysis of the deposited data

How the results depend on the processing

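Over 20 alternative fits the 6 tested members gave 360 values, of which 353 kept their direction and 0 passed the threshold of an unadjusted p under 0.05 with a 2-fold change. The 7 that reversed were IGF2BP3 in EMX1-FL against vector control (0.03 in the report) without vector control replicate 3 (-0.12), without EMX1-FL replicate 2 (-0.10) and with the GC offset (-0.0792), GPC3 in EMX1-X1 against vector control (-0.11) with limma on log2(TPM + 1) (0.0168), limma on log2(TPM + 0.1) (0.0183) and without vector control replicate 3 (0.10), and LIN28B in EMX1-X1 against vector control (-0.17) with the cluster as a term (0.0296). Over the fits that left out 1 library these values ran from -0.12 to 0.12 for IGF2BP3 and from -0.29 to 0.10 for GPC3. The cause was not tested. Without a filter beyond 1 count, 1 member was called for EMX1-FL (IGF2) and 1 for EMX1-X1 (DLK1), since 9 of the 10 were then tested. The share of all genes called in that unfiltered fit is not given here. These calls are therefore not read as a result about the members. Leaving out each library in turn gave 0 to 0 members called in each comparison.

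Counts over all genes moved more. Against 450 (EMX1-FL), 464 (EMX1-X1) and 263 calls (between the isoforms), limma on log2(TPM + 1) gave 142, 177 and 107, no filter gave 947, 962 and 686, and at least 10 counts in every library gave 217, 214 and 121. Leaving out each library in turn gave 437 to 676, 311 to 906 and 141 to 1108 calls. The counts moved by over 1.5 times without EMX1-FL replicate 1 (676 and 1108, for EMX1-FL and between the isoforms), without EMX1-X1 replicate 1 (906 and 759, for EMX1-X1 and between the isoforms), and between the isoforms without EMX1-X1 replicate 2 (162) or 3 (141). The replicate numbers did not pair the libraries: residuals of libraries with the same number correlated at a mean of -0.126 against 0.0596 for other numbers, and 0 of 9 libraries correlated best with its own number. With the replicate block 385, 407 and 208 genes were called, and 0 members. Depth limits H19, IGF2, DLK1 and AFP, where a library at 0 allows up to 3 counts.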
